A study of Saccharomyces cerevisiae with 14 samples.

Results

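The mitochondrial genome of Saccharomyces cerevisiae encodes a handful of proteins, and the transcripts described here come from a chosen set of its protein-coding genes outside the COX1 locus. They were selected by identifier, with earlier results of these data known, and are 10 of the 28 mitochondrial transcripts and of the 6612 transcripts in all in each deposited table. ATP6 (Q0085_mRNA) and ATP8 (Q0080_mRNA) encode subunits of the membrane sector of ATP synthase, and OLI1 (Q0130_mRNA) encodes the subunit of its rotor ring. COB (Q0105_mRNA) encodes cytochrome b of respiratory complex III. BI2 (Q0110_mRNA), BI3 (Q0115_mRNA) and BI4 (Q0120_mRNA) are reading frames that run from the COB exons into its introns and encode maturases, proteins that help to splice those introns. COX2 (Q0250_mRNA) and COX3 (Q0275_mRNA) encode core subunits of cytochrome c oxidase, complex IV. VAR1 (Q0140_mRNA) encodes a protein of the small mitochondrial ribosomal subunit.

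RNA was sequenced from arp8-AA cells (strain yPB4, MAT a his3Δ1 leu2Δ0 ura3Δ0, carrying Arp8 with the substitutions S65A and S233A) and from ARP8 cells (strain yCFK51, MAT a his3Δ1 leu2Δ0 met15Δ0 ura3Δ0). Arp8 is an actin-related subunit of the chromatin remodeller INO80, and both serines are targets of the replication kinase DDK. The question was whether loss of these phosphorylation sites alters transcript levels. One experiment used asynchronous cultures in YPAD, a rich medium with glucose, with 3 arp8-AA and 3 ARP8 libraries. The other used cells held in G1 by the mating pheromone α-factor and collected 10 and 20 min after release, with 2 arp8-AA and 2 ARP8 libraries at each time. The study reports that arp8-AA cells enter S phase late, so cells compared at one time may differ in stage. Each genotype was a single strain. Replicates are named biological in the labels, with no statement of how the cultures were separated, so p-values measure the spread between these samples. Counts of asynchronous ARP8 replicates 2 and 3 differed least, with a chi-square per degree of freedom of 1.61, where sampling noise alone gives about 1. It was 11.8 and 11.5 for ARP8 replicate 1 against replicates 2 and 3, so these 3 replicates may not be equally independent. In asynchronous arp8-AA cells it ran from 3.22 to 8.15.

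Yeast mitochondrial genes are transcribed inside the organelle by a dedicated polymerase, made of the core enzyme Rpo41 and the specificity factor Mtf1, from short promoters with a conserved nonamer motif. Several genes lie on shared primary transcripts that are then cleaved: COX1 is transcribed together with ATP8 and ATP6, and OLI1 together with VAR1. The 3′ ends of the mRNAs lie at a conserved dodecamer motif. These mRNAs carry no poly(A) tail, so they are retained in libraries made, as here, by ribosomal RNA depletion. Glucose represses respiration in this yeast.

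The nonamer was searched on both strands of the R64 mitochondrial genome (85779 bases, 17.1% G+C) as ATATAAGTA or TTATAAGTA. These spellings do not overlap one another at a site, and together they occurred 17 times on the coding strand of all 10 transcripts and 5 times on the opposite strand. Of 42 consecutive windows of 2000 bases, 13 held a match on the coding strand and 17 (40.5%) on either strand. The nearest match upstream of each start codon is shown, with the nonamer in capitals, because it groups the transcripts by the first promoter-like sequence they share.
COX1, ATP8 and ATP6 (chrMT:13328-13357, plus strand): aatattaaataataagtattgATATAAGTA
COB, BI2, BI3 and BI4 (chrMT:34857-34886, plus strand): aatataattataagaaatattATATAAGTA
OLI1 and VAR1 (chrMT:46128-46157, plus strand): atataaatcttatacacatttATATAAGTA
COX2 (chrMT:69684-69713, plus strand): ctttcattaatatatattttaTTATAAGTA
COX3 (chrMT:77377-77406, plus strand): taaatatatatatatattataTTATAAGTA

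The match ended 461 bases before the COX1 start codon and 15130 bases before that of ATP6, with 0 further matches between COX1 and ATP8 or between ATP8 and ATP6. It lay 1654 bases before the common start codon of COB, BI2, BI3 and BI4, 566 bases before OLI1 and 2744 before VAR1. For COX3 the distance was 1807 bases and for COX2 4045 bases. A match of these letters is a description of the sequence and not a mapped start site.

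The dodecamer was taken from the genome itself, as the longest word shared by the 1000 bases after the stop codons of COX1, ATP6, COB, VAR1, COX2 and COX3. The only such word of 12 bases was AATAATATTCTT, and 0 words of 13 bases were shared by all 6 stretches. It occurred 9 times on the coding strand and 2 times on the other, in 21.4% of the 2000-base windows on the coding strand and 26.2% on either strand. The first match downstream of each gene is shown in capitals. A shared match describes position and does not show that the mature mRNAs end together.
ATP8 and ATP6 (chrMT:29345-29372, plus strand): ccccttttAATAATATTCTTttatctaa
COB, BI2, BI3 and BI4 (chrMT:43737-43764, plus strand): aatactttAATAATATTCTTaaaaataa
OLI1 and VAR1 (chrMT:50669-50696, plus strand): ataaataaAATAATATTCTTaattttta
COX2 (chrMT:74568-74595, plus strand): ataattatAATAATATTCTTaaatataa
COX3 (chrMT:80115-80142, plus strand): attattatAATAATATTCTTacaaatat
COX1 (chrMT:26762-26789, plus strand): aatataatAATAATATTCTTataaaaat
It began 87 bases after the ATP6 stop codon, 98 after that of COB, 63 after COX2, 101 after COX3 and 580 after VAR1. A match within 1000 bases of each of these stop codons followed from how the word was chosen. For OLI1 the distance was 3724 bases, past the whole of VAR1, with 0 dodecamers between OLI1 and VAR1. Between COX1 and ATP8, which are 964 bases apart, there was 1 dodecamer.

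COB occupies chrMT:36540-43647 in 6 coding exons of 1158 coding bases in all. BI2, BI3 and BI4 start at the same base, use the first 2, 3 and 4 exons of COB and then read on into the intron that follows. The point where BI4 leaves the COB mRNA shows what can tell them apart. Capitals are the last bases of exon 4 and lower case what follows.
COB, exon 4 joined to exon 5: CCTAATACTTTAGGTcatcctgataactat
BI4 at the same point (chrMT:41076-41105): CCTAATACTTTAGGTcaaaatatggcctta
Of the 31-base words of the COB coding sequence, 64.5% also occurred in another coding sequence, and the share was 32.1% for BI2, 31.2% for BI3 and 38.6% for BI4. The software of the authors divides reads that match several transcripts among them, so the split within this locus is an estimate. For ATP6, ATP8, OLI1, COX2 and COX3 the share was 0%, and for VAR1 it was 0.0857%. The counting was made without regard to strand, so antisense reads, if any, are included.

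The 14 libraries held between 1864995 and 6016858 estimated counts. ARP8 (YOR141C) itself was detected in every library, at 188.6 to 217 CPM (counts divided by the TMM-scaled size of the library) in asynchronous arp8-AA cells and 148.6 to 184 CPM in ARP8 cells, so the arp8-AA values lay just above the ARP8 values, and its log2 fold change of 0.21 had an adjusted p of 0.339 in edgeR. Substitutions cannot be seen in such counts. The MAT a genes MFA1, MFA2 and STE2 were all present, the lowest value being 33.9 TPM, while the MAT alpha genes MF(ALPHA)1, MF(ALPHA)2 and STE3 stayed at or below 6.83 TPM. LEU2, URA3 and MET17, the current name of MET15, had 0 counts in all 14 libraries. That includes the 7 arp8-AA libraries, whose labelled genotype lists no met15 allele. HIS3 had 58 to 373 counts in arp8-AA libraries and 57 to 166 counts in ARP8 libraries. Both genotypes carry his3Δ1.

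Together the 10 transcripts took 0.443, 0.478 and 0.378% of all counts in asynchronous arp8-AA replicates 1, 2 and 3, and 0.523, 0.519 and 0.463% in ARP8 replicates 1, 2 and 3. The groups overlapped. After release the share was 0.606 and 0.408% in arp8-AA cells and 0.622 and 0.523% in ARP8 cells at 10 min, and 0.567 and 0.485% in arp8-AA cells and 0.637 and 0.417% in ARP8 cells at 20 min. Replicate 2 was below replicate 1 in every released group.

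Levels of different transcripts were compared in TPM, which divides by length. OLI1 had the highest value of the 10 in each of the 14 libraries, from 3494 to 6996 TPM with a median of 5044 TPM. Its coding sequence is short, and the effective length by which kallisto divides was only 83.3 to 94.4 bases, so its rank depends on that correction. In estimated counts OLI1 made up 13.3 to 19.4% of the 10 transcripts, and COB made up 26.0 to 36.4%. COX2 (median 1045 TPM) and COB (median 902 TPM) came next and changed places between libraries, with COX2 the higher in 11 of 14. COX3 (median 540 TPM), ATP6 (median 301 TPM), BI4 (median 83.9 TPM) and BI2 (median 49.7 TPM) followed in that order in every library, so the intron reading frames stood well below COB. VAR1 (median 20.1 TPM), BI3 (median 15.6 TPM) and ATP8 filled the last ranks in an order that varied. TPM values of different libraries also depend on the other transcripts in each, and the comparisons of genotypes therefore used counts with TMM scaling.

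**Figure D1:**
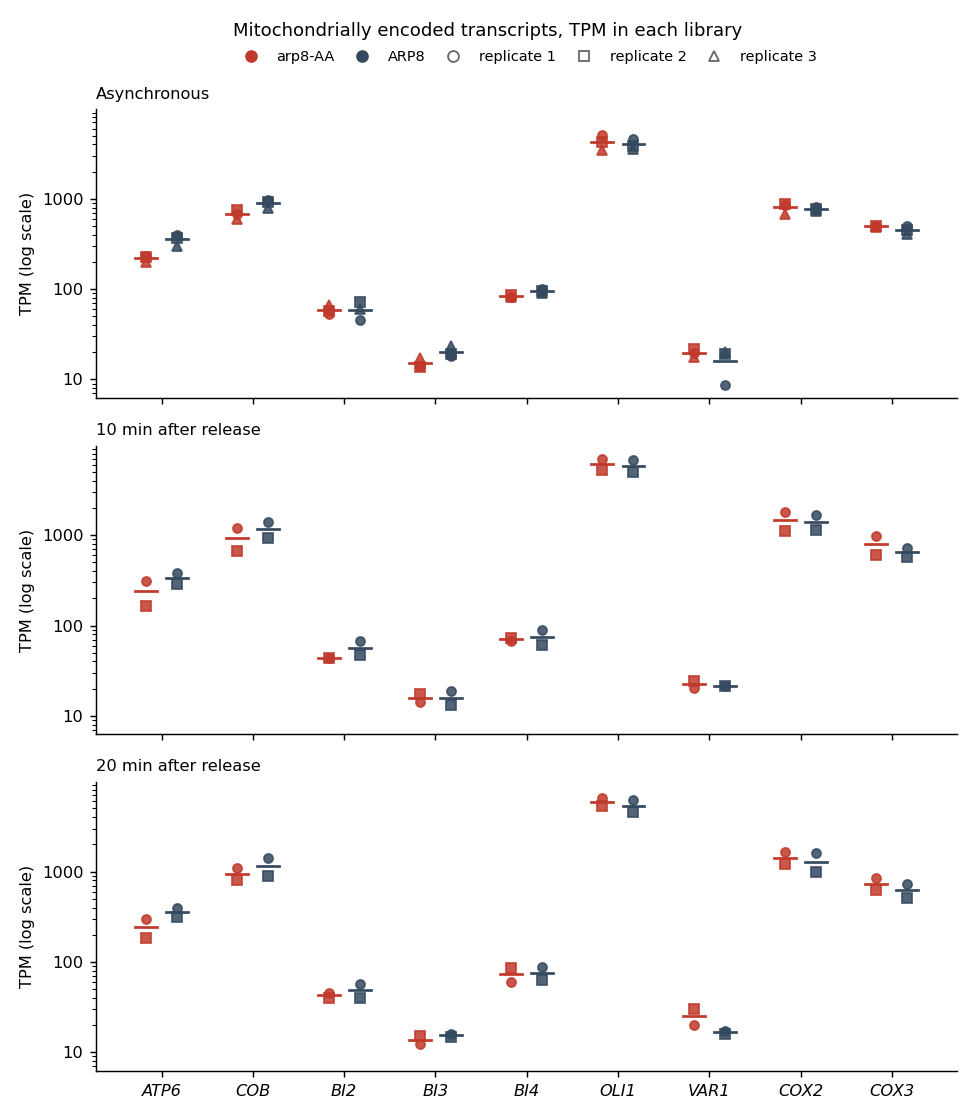
TPM (log scale) of 9 mitochondrially encoded transcripts in each library, with arp8-AA (red) left of ARP8 (dark) and bars at the group mean, for asynchronous cells, 10 min and 20 min. OLI1 is highest throughout, with 3494 to 6996 TPM, and the arp8-AA points lie below all ARP8 points for ATP6, COB, BI3 and BI4 in asynchronous cells. ATP8, with 0 to 5 counts in a library, is left out.

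ATP8 was almost unseen. It had 26 counts over all 14 libraries, at most 5 in any one, and 0 in 3 libraries, where a count of 0 allows up to 3 counts. In asynchronous cells it had 0, 2 and 0 counts in arp8-AA replicates 1, 2 and 3, against 0, 1 and 3 in ARP8 replicates. After release there were 1 and 2 counts in arp8-AA cells against 3 and 2 in ARP8 cells at 10 min, and 1 and 2 in arp8-AA cells against 5 and 4 in ARP8 cells at 20 min. These are too few for a fold change. The coding sequence (chrMT:27666-27812) has 147 bases and an effective length of 29.9 to 36.6 bases. After division by that length the median, which rests on these few counts, was 8.59 TPM, against 301 TPM for ATP6. The reason for the low counts was not tested. The sequence is printed to show its size.
ATP8: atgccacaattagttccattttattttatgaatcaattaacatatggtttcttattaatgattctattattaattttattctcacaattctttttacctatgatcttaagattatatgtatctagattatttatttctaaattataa
It did not pass the filter on low counts, so 9 of the 10 transcripts were tested.

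In asynchronous cultures, ATP6 and COB were lower in arp8-AA cells, and COX2, COX3 and OLI1 differed by little. ATP6 (chrMT:28487-29266, 1 exon) had 260.3, 283 and 226 CPM in arp8-AA replicates 1, 2 and 3, against 483, 479.9 and 394 CPM in ARP8 replicates 1, 2 and 3. All 3 arp8-AA values lay below all ARP8 values. ATP6 fell by 43.3%, a log2 fold change of −0.82 (standard error, SE, 0.08, and below ARP8 in 3 of 3 pairs) with an adjusted p of 0.000784 in edgeR's quasi-likelihood test. That test had the replicate number as a block, its p values were adjusted by Benjamini-Hochberg across every transcript tested, and an adjusted p under 0.05 is referred to as called. Since RNA came from whole cultures, a fall in some of the cells and a smaller fall in all of them cannot be told apart.

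COB had 1239, 1532 and 1089 CPM in arp8-AA replicates 1, 2 and 3, against 1924, 1925 and 1687 CPM in ARP8 replicates. The groups did not overlap here either, and arp8-AA replicate 2 came closest to the ARP8 values. COB fell by 30.8%, with a log2 fold change of −0.53 (SE 0.08, lower in 3 of 3 pairs, adjusted p = 0.0163, edgeR). When COB, BI2, BI3 and BI4 were summed into 1 feature, so that the division of shared reads no longer mattered, the log2 fold change was −0.48 (adjusted p = 0.0197, edgeR).

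Thus 2 of the 9 transcripts tested were called, both in the direction of lower levels in arp8-AA cells. Over all 5204 transcripts tested, 0.942% were called and 0.327% were called as lower. Both calls rested on the replicate block, and that of COB on replicate 3 as well. Without the block 0 of the 9 were called, with adjusted p of 0.0523 for ATP6 and 0.359 for COB, although the log2 fold changes of −0.82 and −0.52 hardly moved, and 4 transcripts were called in all against 49 with it. Without replicate 3, ATP6 was still called, and COB had a log2 fold change of −0.48 and an adjusted p of 0.122 in edgeR.

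Transcripts of the 8 core histone genes, which are expressed in S phase, moved with genotype as well. In asynchronous cells 3 of the 8 were called, all lower in arp8-AA cells, and their median log2 fold change was −0.37. Their part in the values of ATP6 and COB was not tested.

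The intron reading frames of COB gave smaller or less certain values. BI4, whose maturase acts on introns of COB and COX1, had 263, 308 and 264 CPM in arp8-AA replicates 1, 2 and 3, against 347, 360.2 and 342 CPM in ARP8 replicates. The groups did not overlap, yet the log2 fold change of −0.33 (SE 0.08, lower in 3 of 3 pairs) had an adjusted p of 0.0953 in edgeR. BI3, the maturase of the third COB intron, had 36.1, 39.0 and 44.9 CPM in arp8-AA replicates against 49.9, 56.3 and 68.8 CPM in ARP8 replicates. Its log2 fold change was −0.54 (SE 0.14, lower in 3 of 3 pairs, adjusted p = 0.101, edgeR). BI2, the maturase of the second intron, had 106.5, 131 and 138 CPM in arp8-AA replicates against 101, 170.0 and 143 CPM in ARP8 replicates. Its groups overlapped, and the log2 fold change was −0.12 (SE 0.12). Counting ATP6 and COB, 4 of the 9 transcripts had arp8-AA values all below the ARP8 values, against 7.26% of all transcripts tested. COB, BI3 and BI4 share exons and reads of the same locus, so these are not 4 separate observations.

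The other members stayed near their level in ARP8 cells. COX2 had 930.0, 1044 and 751 CPM in arp8-AA replicates 1, 2 and 3, against 962, 973 and 921 CPM in ARP8 replicates. COX3 had 586, 659 and 578 CPM in arp8-AA replicates, against 639, 617 and 559.8 CPM in ARP8 replicates. OLI1 had 800.0, 723 and 557 CPM in arp8-AA replicates, against 766, 710.3 and 636 CPM in ARP8 replicates. For each of these 3 transcripts the groups overlapped and the arp8-AA replicates spread on both sides of an ARP8 value. The log2 fold change was −0.08 for COX2, 0.01 for COX3 and −0.03 for OLI1, and the ranges of 2 SE either side ran from −0.25 to 0.09, from −0.15 to 0.16 and from −0.19 to 0.12 in that order. A log2 difference of the size seen for COB lay outside all 3 ranges.

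VAR1 is the least GC-rich member, with 10.4% G+C, and its counts were low. The beginning of its coding sequence (chrMT:48901-49050) shows this composition.
VAR1, first 150 coding bases: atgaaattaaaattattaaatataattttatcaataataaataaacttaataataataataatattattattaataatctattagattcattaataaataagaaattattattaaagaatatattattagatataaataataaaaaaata
It had 36.9, 45.9 and 34.1 CPM in arp8-AA replicates 1, 2 and 3, against 17.9, 42.5 and 44.5 CPM in ARP8 replicates. ARP8 replicate 1, with 33 counts, stood apart from the other libraries of its group. The log2 fold change of VAR1 was 0.19 (SE 0.23), and without replicate 1 it was −0.13.

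COX1 (Q0045_mRNA), which lies upstream of ATP8 and ATP6, had 997, 1136 and 809 CPM in asynchronous arp8-AA replicates 1, 2 and 3, against 1948, 1926 and 1740 CPM in ARP8 replicates. Its log2 fold change was −0.94 (SE 0.08, adjusted p = 0.000784, edgeR). Along the genome the log2 fold changes thus ran from −0.94 for COX1 and −0.82 for ATP6 to −0.53 for COB, −0.03 for OLI1, 0.19 for VAR1, −0.08 for COX2 and 0.01 for COX3.

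**Figure D2:**
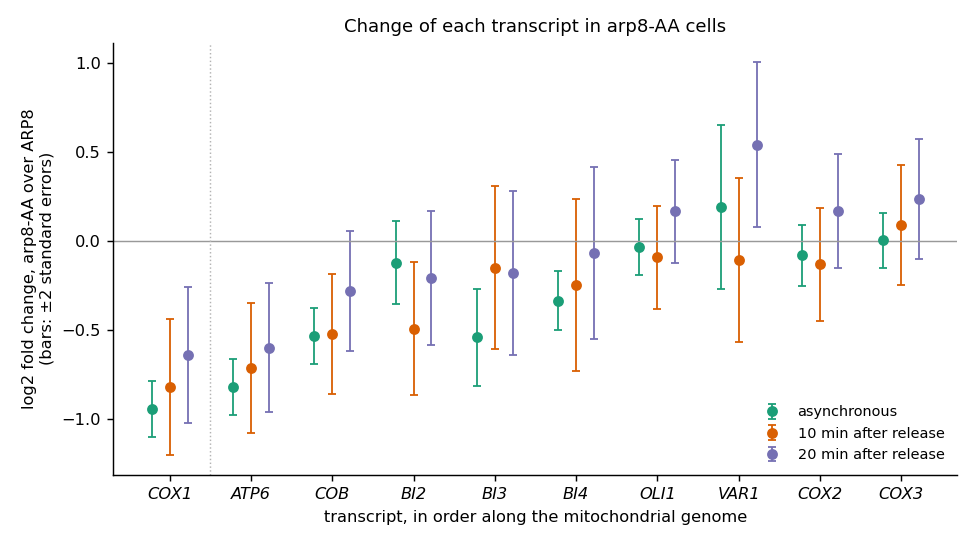
Log2 fold change of arp8-AA over ARP8 for COX1 and the 9 transcripts tested, in order along the mitochondrial genome, with bars of 2 SE either side. In asynchronous cells COX1 (−0.94), ATP6 (−0.82), BI3 (−0.54) and COB (−0.53) lie lowest, while COX2 (−0.08), COX3 (0.01) and OLI1 (−0.03) lie at 0 within their bars. The 10 and 20 min values of ATP6 are −0.71 and −0.60.

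After release from α-factor, ATP6 and COB had the lowest log2 fold changes of the 9 at each time, but 0 were called at 10 min, at 20 min or over both times. Over all 5453 transcripts tested, 0% were called at 10 min, 0.0183% at 20 min and 0.0917% over both times. At 10 min 3 of the 9 transcripts (ATP6, COB and BI2) had an unadjusted p under 0.05, against 2.82% of all. At 20 min ATP6 and VAR1 did, 2 of the 9 against 7.15% of all, and over both times ATP6, COB and BI2 did, 3 of the 9 against 6.36% of all.

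ATP6 had 281 and 169 CPM in arp8-AA replicates 1 and 2 at 10 min, against 357 and 356 CPM in ARP8 replicates. At 20 min it had 283 and 201 CPM in arp8-AA replicates, against 402 and 325 CPM in ARP8 replicates. All 4 arp8-AA libraries lay below all 4 ARP8 libraries, which held for 0.789% of the transcripts tested in that direction. The lowest value came from arp8-AA replicate 2 at 10 min, which was also the most deeply sequenced library. The log2 fold change was −0.71 (SE 0.18) at 10 min and −0.60 (SE 0.18) at 20 min. Over both times it was −0.66 (SE 0.13, lower in 4 of 4 pairs, adjusted p = 0.119, edgeR). These pairs carry replicate numbers 1 and 2 only, and the labels do not say whether a number is a single culture. When the 10 min libraries were fitted alone, ATP6 was called with an adjusted p of 0.0141, and 48 transcripts were called in all. Over both times it was called with DESeq2 (adjusted p = 0.00354), with all 14 libraries in 1 edgeR fit (adjusted p = 0.0240) and without the filter on low counts (adjusted p = 0.0449, edgeR), and in the other alternatives its adjusted p ran up to 0.999.

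COB had 1753 and 1074 CPM in arp8-AA replicates 1 and 2 at 10 min, against 2120 and 1836 CPM in ARP8 replicates. At 20 min it had 1629 and 1411 CPM in arp8-AA replicates, against 2288 and 1479 CPM in ARP8 replicates. Each arp8-AA library lay below the ARP8 library of the same number and time, but over both times the groups overlapped. The log2 fold change was −0.52 (SE 0.17) at 10 min, −0.28 (SE 0.17) at 20 min and −0.40 (SE 0.12, adjusted p = 0.496, edgeR) over both. None of the alternative fits called COB in released cells. The core histone transcripts had medians of −0.55 at 10 min and −0.16 at 20 min, with 0 of 8 called at either time in edgeR or DESeq2 and 2 and 0 with an unadjusted p under 0.05, and their part in these values was not tested.

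**Figure D3:**
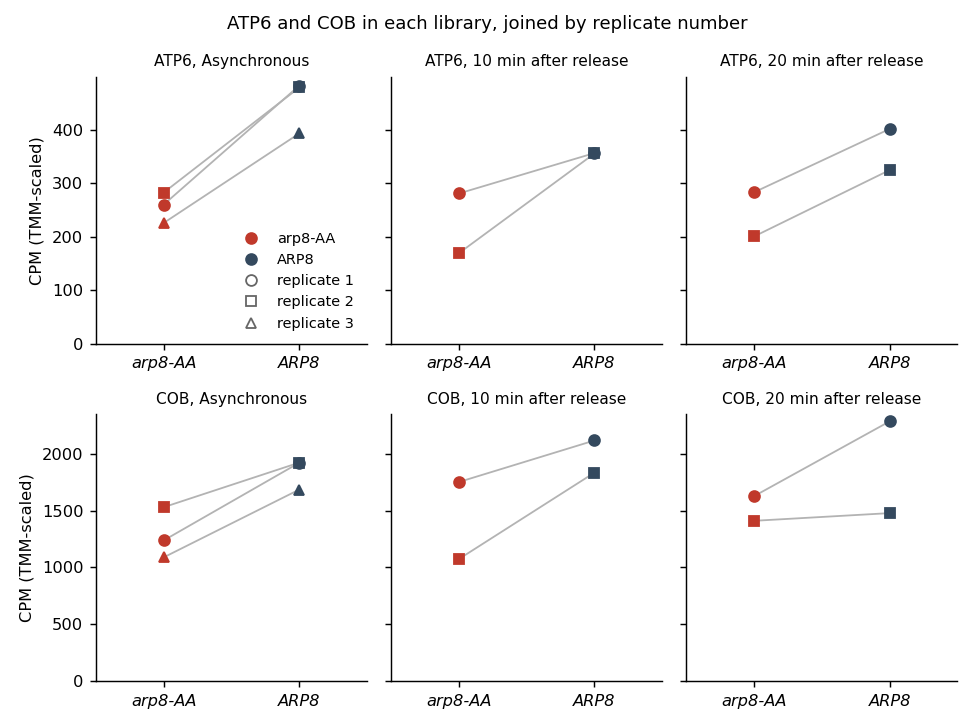
CPM of ATP6 (top) and COB (bottom) in each library, arp8-AA (red) left of ARP8 (dark), with lines joining libraries of one replicate number. Every line runs upward from arp8-AA to ARP8, the flattest being COB in replicate 2 at 20 min, with 1411 CPM in arp8-AA and 1479 CPM in ARP8.

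BI2 had 71.6 and 79.9 CPM in arp8-AA replicates at 10 min against 112.5 and 103 CPM in ARP8 replicates, and 76.6 and 77.0 CPM at 20 min against 104 and 73.9 CPM. The groups, of 2 libraries each, were apart at 10 min and overlapped at 20 min. The share of all transcripts with groups apart at 10 min was not counted. Its log2 fold change over both times was −0.35 (SE 0.13, adjusted p = 0.701, edgeR). BI3 lay between 26.1 and 39.4 CPM in the 4 arp8-AA libraries and between 34.2 and 39.1 CPM in the 4 ARP8 libraries, with a log2 fold change of −0.16 (SE 0.16). BI4 had −0.16 (SE 0.17) and was unevenly spread in arp8-AA cells, with 171.5 and 208 CPM at 10 min and 159 and 265 CPM at 20 min in replicates 1 and 2, against 236.5 and 213 CPM and then 251 and 186 CPM in ARP8 cells.

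COX2 over both times had a log2 fold change of 0.02 (SE 0.11), with values of 1084 to 1579 CPM in the 4 arp8-AA libraries and 974 to 1532 CPM in the 4 ARP8 libraries. COX3 had 0.17 (SE 0.12), with 635 to 941 CPM in arp8-AA and 555 to 767 CPM in ARP8 libraries. OLI1 had 0.04 (SE 0.10), with 800.0 to 947 CPM in arp8-AA and 690.4 to 947 CPM in ARP8 libraries. These 3 ranges overlapped widely. VAR1 had 30.3 and 41.6 CPM in arp8-AA replicates against 33.2 and 44.1 CPM in ARP8 replicates at 10 min, and 31.3 and 54.4 CPM against 28.8 and 27.6 CPM at 20 min. Its log2 fold change was −0.10 (SE 0.23) at 10 min and 0.54 (SE 0.23, adjusted p = 0.694, edgeR) at 20 min.

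COX1 after release had a log2 fold change of −0.73 over both times (SE 0.14, lower in 4 of 4 pairs, adjusted p = 0.104, edgeR), with 1123 to 2100 CPM in the 4 arp8-AA libraries and 2101 to 2927 CPM in the 4 ARP8 libraries.

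Ratios of 2 transcripts within a library do not depend on the scaling between libraries. Those given here were chosen after the values were seen, so they are a description without a test. ATP6 over COX2 was 0.269, 0.260 and 0.289 in asynchronous arp8-AA replicates 1, 2 and 3, against 0.483, 0.474 and 0.411 in ARP8 replicates. After release it was 0.171 and 0.150 in arp8-AA cells against 0.225 and 0.256 in ARP8 cells at 10 min, and 0.182 and 0.152 against 0.252 and 0.321 at 20 min. In each of the 7 pairs the arp8-AA value was the lower, with a mean log2 difference of −0.70 ± 0.25 (SD over 7 pairs). Pairs at 10 and 20 min with the same replicate number may come from a single culture, so the 7 are not shown to be independent.

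COB over COX2 was 0.791, 0.870 and 0.861 in asynchronous arp8-AA replicates against 1.19, 1.17 and 1.09 in ARP8 replicates. After release it lay between 0.595 and 0.669 in the 4 arp8-AA libraries and between 0.823 and 0.910 in the 4 ARP8 libraries. This ratio separated the genotypes in both experiments, with a mean log2 difference of −0.43 ± 0.09 (SD over 7 pairs), and its pairs were closer to one another than those of ATP6 over COX2.

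ATP6 over COX1 stayed close between genotypes, although the COX1 counts depend on how shared reads are divided. It was 0.613, 0.586 and 0.656 in asynchronous arp8-AA replicates against 0.583, 0.586 and 0.532 in ARP8 replicates, and 0.310 to 0.358 in released arp8-AA libraries against 0.301 to 0.359 in released ARP8 libraries. The arp8-AA value was the higher in 6 of 7 pairs, and the groups did not overlap in asynchronous cells, but the mean log2 difference was 0.09 ± 0.11 (SD over 7 pairs). BI4 over COB was 0.120, 0.114 and 0.137 in asynchronous arp8-AA replicates against 0.102, 0.106 and 0.115 in ARP8 replicates. In released arp8-AA cells it was 0.0557 in replicate 1 and 0.111 in replicate 2 at 10 min, and 0.0557 and 0.107 at 20 min, against 0.0623 to 0.0714 in the 4 ARP8 libraries. Replicate 2 of arp8-AA thus stood apart from replicate 1 at both times, by more than the genotypes differed in asynchronous cells.

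**Figure D4:**
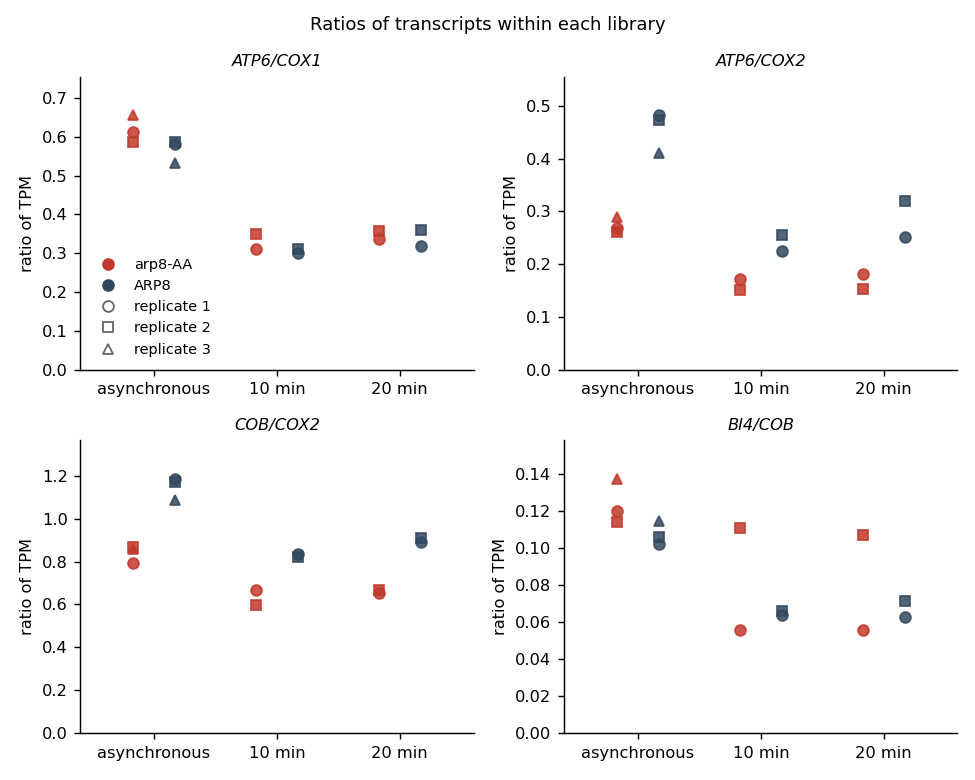
Ratio of TPM within each library for ATP6 over COX1, ATP6 over COX2, COB over COX2 and BI4 over COB, with arp8-AA (red) left of ARP8 (dark) in asynchronous cells and at 10 and 20 min. The arp8-AA points lie below the ARP8 points of the same stage for ATP6 over COX2 and COB over COX2, while for ATP6 over COX1 the genotypes lie close together, overlapping in released cells, where all libraries lie between 0.301 and 0.359.

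The genotype difference was not shown to change with time or experiment. In the interaction of genotype and time, the difference at 20 min minus that at 10 min, 0 of the 9 transcripts were called, with 0% of all 5453 called. The log2 values ran from −0.03 for BI3 to 0.65 for VAR1 (SE 0.33, adjusted p = 0.962, edgeR), and 0 of the 9 had an unadjusted p under 0.05, against 2.02% of all. Setting the released experiment against the asynchronous one in a fit of all 14 libraries, 0 of the 9 were called and 0% of 5493, and 0 of the 9 had an unadjusted p under 0.05, against 5.79% of all. By DESeq2, 0 of the 9 were called as well in both comparisons. The difference was 0.16 for ATP6 (SE 0.17), 0.12 for COB (SE 0.16) and 0.37 for BI3 (SE 0.22).

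Between 20 and 10 min within a genotype, 0 of the 9 transcripts were called in arp8-AA cells and 0 in ARP8 cells, against 0.0183% and 0.11% of all transcripts. By DESeq2 0 of the 9 were called in both genotypes, and 0 of the 9 had an unadjusted p under 0.05 in either, against 9.98% of all transcripts in arp8-AA cells and 10.1% in ARP8 cells. The median log2 fold change of the 9 was 0.08 in arp8-AA cells and −0.16 in ARP8 cells. Core histone transcripts, markers of S phase entry, had medians of 1.52 and 1.18 in the same comparisons. In edgeR 0 of the 8 were called in either genotype, although 8 of 8 had an unadjusted p under 0.05 in each. By DESeq2 4 were called in arp8-AA cells and 2 in ARP8 cells.

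Levels in the asynchronous and released experiments are set side by side without a test, since growth, pheromone treatment and the experiment itself cannot be told apart. COX2 had 980 to 1813 TPM in the 8 released libraries, with a median of 1395, and 688 to 868 TPM in the 6 asynchronous libraries, with a median of 797. COX3 had 512 to 992 TPM after release and 408 to 501 TPM in asynchronous cells. For COX2 and COX3 the experiments did not overlap, and the share of all transcripts for which this held was not counted. COB, with 660 to 1419 TPM after release and 592 to 971 TPM in asynchronous cells, overlapped, as did BI2, BI3 and VAR1. OLI1, with 4529 to 6996 TPM after release and 3494 to 5114 TPM in asynchronous cells, overlapped in part. ATP6 had 167 to 401 TPM after release and 199 to 394 TPM in asynchronous cells, and BI4 had 60.3 to 89.8 TPM and 81.3 to 99.2 TPM. The ratio of ATP6 over COX1 was lower after release, lying at 0.301 to 0.359 there and at 0.532 to 0.656 in asynchronous cells. BI4 over COB overlapped between the experiments, with 0.0557 to 0.111 after release and 0.102 to 0.137 in asynchronous cells.

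Expression of these genes needs nuclear-encoded factors, and the proteins work in complexes with nuclear-encoded subunits. A list of 32 factors for mitochondrial transcription, genome maintenance, splicing, translation and turnover had 30 members tested in asynchronous cells, of which 0 were called. Of these, 2 passed an unadjusted threshold of 0.05, which 15.9% of all transcripts passed, and the list had a median log2 fold change of 0.04 against 0.00 over all transcripts. The 2 were RPO41, the polymerase (0.26, SE 0.11, adjusted p = 0.300, edgeR), and ATP25, which stabilises the OLI1 mRNA (0.27, SE 0.12, adjusted p = 0.304, edgeR). RPO41 was higher in 2 pairs and lower in 1, and ATP25 was higher in 3 pairs and lower in 0. Of all 5204 transcripts tested, 1007 were higher in every pair. Of 31 nuclear subunits of complexes III, IV and V, 0 were called, with a median of 0.04. The smallest p values belonged to ATP14 of ATP synthase (−0.70, SE 0.31, adjusted p = 0.304, edgeR) and COX13 of complex IV (0.27, SE 0.12, adjusted p = 0.313, edgeR). By DESeq2, 0 of either list were called.

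After release 0 of the 31 factors tested and 0 of the 31 nuclear subunits were called at either time or over both. The unadjusted p was under 0.05 for 0 factors and 0 subunits at 10 min, for 1 and 1 at 20 min, and for 1 and 1 over both, and by DESeq2 0 of either list were called in each of these comparisons. Over both times RPO41 had a log2 fold change of 0.29 (SE 0.11, higher in 4 of 4 pairs, adjusted p = 0.736, edgeR), and ATP22, which is needed to translate ATP6, had 0.28 (SE 0.14, higher in 4 of 4 pairs, adjusted p = 0.768, edgeR). They are named for having the smallest p values of the list. Of all 5453 transcripts tested, 455 were higher in every pair. RPO41 reached 23.7 ± 1.28 TPM in asynchronous arp8-AA cells and 18.2 ± 3.28 TPM in ARP8 cells (SD, n = 3 each). CYT1, cytochrome c1 of complex III, had 0.57 (SE 0.25, adjusted p = 0.768, edgeR), and ATP1, a catalytic-sector subunit of ATP synthase, had 0.23 (SE 0.13, adjusted p = 0.790, edgeR). At 10 min the smallest p belonged to RIM1 (−0.31), a DNA-binding protein of the mitochondrial genome, MRS1 (0.40), a splicing factor, COX7 (−0.41) and COX13 (−0.29), and at 20 min AEP2 (0.33), required for OLI1 expression, joined RPO41 (0.38), CYT1 (1.01) and ATP1 (0.38).

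The nuclear transcripts most like the 9 members summed were found by the root-mean-square difference of log2 CPM over the 14 libraries, each centred on its mean within the experiment, among 5473 nuclear transcripts. They were SWD3, a subunit of the COMPASS histone methyltransferase (difference 0.115), SFH5, a phosphatidylinositol transfer protein (0.134), YGL088W (0.134), ITC1, a subunit of the Isw2 remodeller (0.136), and COX8, a subunit of complex IV (0.137). The summed members themselves deviated from their means by 0.201 on this scale, so even the nearest transcripts followed them only in part.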

How the data were processed

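Libraries were rRNA-depleted and directional, and RNA was extracted with QIAzol according to the methods or Trizol according to the labels. The authors pseudoaligned reads to R64 transcripts with kallisto 0.48 at default settings and deposited estimated counts and TPM per transcript, without filter or scaling of the counts. All transcript lengths of the members equalled the R64 reference coding lengths. Sequences were read from the R64 RefSeq genome.

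The rounded counts were fitted with edgeR 4.0.16 (limma 3.58.1, R 4.3.3), using TMM factors (0.940 to 1.05), filterByExpr, the replicate number as a block, two-sided quasi-likelihood F-tests and Benjamini-Hochberg adjustment across every transcript tested, with the asynchronous and released libraries fitted apart. Standard errors were the log2 fold change divided by the square root of F. DESeq2 1.42.0 (Wald test, replicate as covariate) and other settings were alternatives. Python 3.11.15, pandas 2.3.3 and matplotlib 3.10.9 made tables and plots, and the fit was tested on simulated data.

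Pairing was checked by correlating deviations from group means. Libraries of one number gave r of 0.174 to 0.329 (asynchronous) and 0.478 to 0.653 (released), different numbers at most 0.180 in the asynchronous set and the mirrored values in the released set. The pairing comes from these correlations and from the experimental batch named in the methods. Whether the 10 and 20 min samples of a number came from one culture is not given in the sources used here, so pairs counted over both times may not be independent.

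Transcripts named are all members, ARP8, COX1, the 5 nearest nuclear transcripts, and from 2 lists the called genes or else the 2 with the smallest p in each genotype comparison. Strain and mating-type genes were named as label checks. Members and lists were chosen with earlier results of these data known.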

Additional observations from a re-analysis of the deposited data

Results flagged for a closer look

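OLI1 and VAR1 lay lower in arp8-AA cells in 2 of 2 pairs at 10 min and higher in 2 of 2 pairs at 20 min. The share of all transcripts with this pattern was not counted, so it is not shown to be particular to them. OLI1 had 947.3 and 800.0 CPM in arp8-AA replicates 1 and 2 at 10 min, against 947.4 and 906 CPM in ARP8 replicates, and 914.5 and 856 CPM in arp8-AA replicates at 20 min, against 896 and 690.4 CPM in ARP8 replicates. The first of these pairs was equal to within 1 CPM. The genotype difference of OLI1 at 20 min minus that at 10 min was 0.26 on the log2 scale (SE 0.21, adjusted p = 0.962, edgeR). For VAR1 it was 0.65 (SE 0.33, adjusted p = 0.962, edgeR), with 75 and 247 counts in arp8-AA replicates and 84 and 134 counts in ARP8 replicates at 10 min, and 96 and 166 counts in arp8-AA replicates and 133 and 75 counts in ARP8 replicates at 20 min. Neither difference was called.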

How the results depend on the processing

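With 2 or 3 libraries per group the calls depended on the settings. In asynchronous cells the number of transcripts called was 2, and it was 0 without the replicate block and 1 (ATP6) with all 14 libraries in 1 fit, where COB had −0.53 and an adjusted p of 0.157 in edgeR. Leaving out each replicate pair gave 1 to 2. At an adjusted p under 0.1, BI4 was called as well, 3 in all. At 10 min the number was 1 (ATP6) with that time fitted alone, and over both times 1 (ATP6) with DESeq2, with all 14 libraries in 1 fit or without the filter. The block changed no other count of members called. Over all transcripts, 49 calls in asynchronous cells became 158 without the filter, 126 at an adjusted p under 0.1, 9 with all 14 libraries in 1 fit, 4 without the block and 8 without replicate 3. Over both times 5 calls became 28 with DESeq2, 18 with all 14 libraries, 25 without the filter, 10 at an adjusted p under 0.1 and 0 without the block. The single call at 20 min became 0 to 7, and 0 calls at 10 min became 5 with DESeq2 and 48 with that time alone. Between times, 1 call in arp8-AA cells became 0 to 54 and 6 in ARP8 cells 0 to 31. Without the block the members with an unadjusted p under 0.05 numbered 1 at 10 min, 0 at 20 min and 1 over both times.

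Among single transcripts, ATP6 and COB kept their direction in every alternative of the genotype comparisons. Their size in released cells depended on single libraries. At 10 min, ATP6 was −0.97 without ARP8 replicate 1 and −0.45 without ARP8 replicate 2, and COB ran from −0.71 without arp8-AA replicate 1 to −0.35 without arp8-AA replicate 2. At 20 min, COB was −0.14 without arp8-AA replicate 1, −0.16 without ARP8 replicate 1 and −0.43 without arp8-AA replicate 2. Values near 0 changed sign. COX3 in asynchronous cells was −0.0017 with DESeq2 size factors and −0.0017 with DESeq2. Leaving out a replicate pair in asynchronous cells gave −0.21 to 0.013 for BI2, −0.080 to 0.045 for OLI1, −0.13 to 0.52 for VAR1, −0.17 to 0.026 for COX2 and −0.039 to 0.070 for COX3. Leaving out each library gave, at 10 min, −0.36 to 0.036 for BI3, −0.28 to 0.017 for COX2 and −0.14 to 0.33 for COX3, and at 20 min −0.44 to 0.053 for BI2, −0.39 to 0.011 for BI3 and −0.50 to 0.33 for BI4. Over both times it gave −0.37 to 0.044 for BI4, −0.022 to 0.091 for OLI1 and −0.059 to 0.096 for COX2. Where 1 library was left in a group, it was assumed to vary like the others. The cause was not tested.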
